A study of Homo sapiens with 13 samples.

Results

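Promoters of protein-coding genes that became much more accessible in M-phase were examined in T98G cells, a line grown from a human glioblastoma, in which the assay for transposase-accessible chromatin (ATAC-seq) had been compared between M-phase and G1. A member was a peak of the deposited table that covered the start of a protein-coding transcript (hg19), whose log2 ratio of the M-phase mean to the G1 mean, each raised by 8, was at least 1, whose M-phase mean was at least 40, and in which every M-phase library lay above every G1 library. The rule found 2014 members among 12644 protein-coding promoter peaks and 129347 peaks in all, and they covered the starts of 2307 of 12940 genes (17.8%). Members were therefore chosen on the M-phase and G1 values themselves, and those values are given as a description, with no test of the members.

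Cells were held in G1 by 72 h without serum. For M-phase, 48 h of starvation preceded a 36 h release into serum medium with nocodazole, which blocks mitosis by taking apart microtubules, and the rounded cells were shaken off. Each phase had 3 libraries. Per the labels the G1 libraries were read on a HiSeq alone, whereas each M-phase replicate had a HiSeq and a NextSeq run that its column does not tell apart, so that the cell cycle phase cannot be told apart from serum, nocodazole or the sequencer. The labels do not say whether libraries of a phase came from separate cultures, and p-values thus measure only the spread between these libraries. Values are counts of reads in each peak that the authors had scaled to the smallest library, called scaled counts here. Summed over all peaks, the G1 libraries held 4191845 to 5092426 scaled counts and the M-phase libraries 5475345 to 6000423. In bulk samples such as these, more cells with an open promoter and a more open promoter per cell cannot be told apart. Chromatin fraction and input samples of the series are not analysed here.

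ATAC-seq uses a transposase that inserts sequencing adapters where DNA is not wrapped in nucleosomes, so that counts are high at active promoters and enhancers. Chromosomes condense in mitosis, transcription is largely shut down and transcription factors differ in how far they stay on the DNA, while promoters are known to keep much of their accessibility. Genes that are read soon after division, among them immediate-early genes and growth genes, have been studied as carriers of such a memory, and RNA polymerase III genes such as those for tRNAs carry their promoters inside the transcribed sequence.

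As a check of the line, 7 of 8 marker genes of glioblastoma-derived mesenchymal cells had a promoter peak with a mean of 10 or more in both phases, and NES had no promoter peak. Of 17 markers of blood, liver, epithelial, glial, neuronal and endothelial cells, 4 had such a peak (EPCAM, KRT8, SNAP25 and SYT1). The marker VIM, which encodes the intermediate filament protein vimentin, was itself a member.

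Members were strong peaks that gained about as much in each library. The median member had 187 scaled counts in G1, with means from 12.8 to 1390, and 453 in M-phase, with means from 40.6 to 3550. The median over members was 187, 163 and 203 in the G1 libraries and 420, 469 and 474 in the M-phase libraries. For the 9147 other protein-coding promoter peaks that also reached a mean of 40 in M-phase, the medians were 146, 135 and 173 in G1 and 185, 202 and 207 in M-phase. The log2 change of the members had a median of 1.21, with quartiles of 1.09 and 1.38 and a highest value of 2.54. It was at least 1.5 in 271 members and at least 2 in 6.

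The condition that libraries should not overlap removed no peak, since 2020 promoter peaks reached a log2 change of 1, 2014 of these had an M-phase mean of 40 or more, and in all 2014 the lowest M-phase library lay above the highest G1 library. The ratio of these 2 libraries had a median of 1.9, and it was at least 2 in 785 members and under 1.2 in 4. Among all peaks 16.6% had every M-phase library above every G1 library, and among protein-coding promoter peaks 53.2%. The median coefficient of variation of a member was 15.2% over the G1 libraries and 9.24% over the M-phase libraries. All 2014 members passed the filter on low values.

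**Figure D1:**
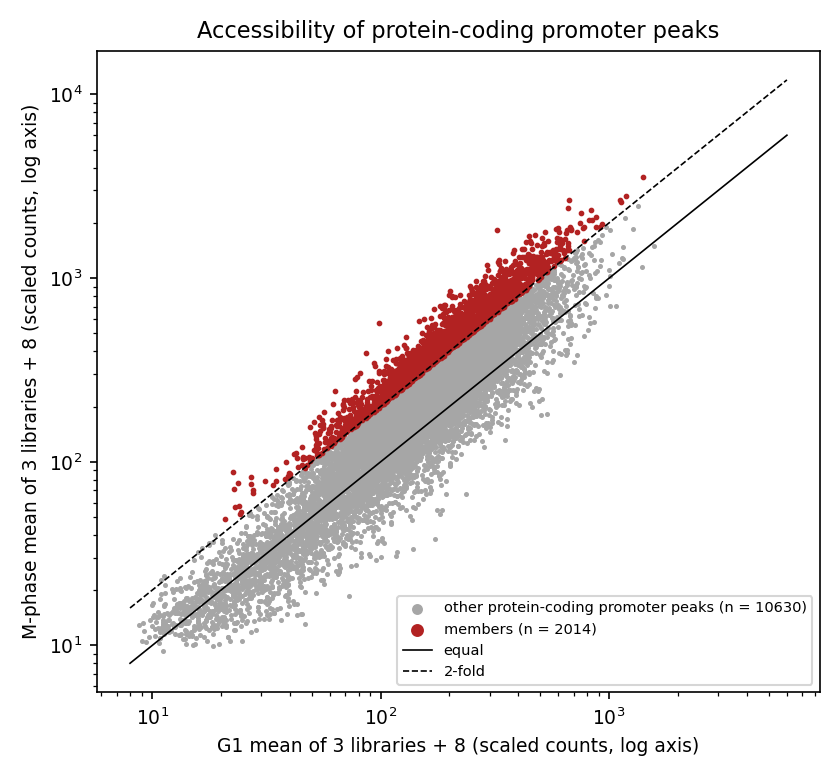
Each point is 1 protein-coding promoter peak, with its G1 mean + 8 on the x axis and its M-phase mean + 8 on the y axis (scaled counts, log axes, 3 libraries each). The 2014 members (red) lie on or above the dashed 2-fold line, at the upper edge of the cloud of 10630 other promoter peaks (grey).

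On the authors' scale promoters gained as a class, and the members were the upper tail of that gain. Protein-coding promoter peaks changed by a median of 0.452 on the log2 scale, and all peaks by 0.0661. By limma on log2(scaled count + 8), 14.3% of the 73121 peaks tested were higher in M-phase and 13.1% lower at an adjusted p under 0.05, whereas of 12411 protein-coding promoter peaks tested, 6059 were higher and 606 lower. With equal totals these became 4170 and 1932, and with loess 2854 and 2187, with a median fitted change of 0.07. The rule was met by 15.9% of protein-coding promoter peaks and, leaving out the promoter condition, by 0.89% of all other peaks. Members held 10.2%, 9.21% and 9.42% of all counts in peaks in the G1 libraries and 18.2%, 19.2% and 18.9% in the M-phase libraries.

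The number of members depended on the scaling. With the same total in every library, 605 peaks met the rule, and with TMM factors, which scale on the middle of the distribution of ratios, 1320 did. A loess that removed the trend of the change with peak height left 245, of which 220 were members. Equal totals moved the median fitted change of all tested peaks from 0.02 to -0.24 and that of protein-coding promoter peaks from 0.47 to 0.14, and turned the split over all peaks from 10439 higher and 9548 lower to 6341 higher and 18090 lower. An M-phase gain of a member is therefore a gain relative to the authors' scaling.

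A promoter chosen on some libraries was also higher in M-phase in the libraries left out of the rule. Those libraries shared the treatment of their phase and the scaling, and the peaks had been called on pooled replicates. The values are therefore a description. When the rule was applied to replicates 2 and 3, it chose 2354 promoter peaks, and in replicate 1 their median log2 change was 1.03, above 0 in 99.9% and at least 1 in 54%. For replicate 2 the rule on the others chose 1589 peaks with a median of 1.44 in the library left out, at least 1 in 90.3%. For replicate 3 it chose 2389 with a median of 1.07, at least 1 in 58.1%. Over all protein-coding promoter peaks the medians in replicates 1, 2 and 3 were 0.42, 0.63 and 0.37. Of these peaks 76.3%, 80.4% and 70% were above 0, and 13.6%, 27.9% and 15% reached 1. The numbers only name the libraries here and do not pair them.

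The largest gain was at a promoter of RUNX1, a transcription factor of blood formation that is also made in other tissues. This peak (chr21:36419959-36422013, hg19) had 94.4, 84.4 and 92 scaled counts in G1 and 524.0, 571.1 and 598.1 in M-phase, a log2 change of 2.54. A second RUNX1 promoter (chr21:36260290-36262661) had 328.1, 305.5 and 355 in G1 and 1053.0, 1118.3 and 1207.3 in M-phase, a change of 1.75. Both start sites of this gene were thus members, and in neither did the phases overlap.

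The next largest was the peak over the start of FBXO31, a ubiquitin ligase subunit, where transcripts of MAP1LC3B also begin. It had 304.2, 282.0 and 362 in G1 against 1678.7, 1886.3 and 1926.7 in M-phase, a log2 change of 2.50. MAP1LC3B encodes LC3B, the protein that is attached to the membrane of autophagosomes, and a second peak over its starts was a member too, with 310.2, 251.6 and 277 in G1 and 861.8, 919.7 and 992.2 in M-phase, a change of 1.70.

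Other members with a log2 change of 2 or more were the promoters of ALOXE3, a lipoxygenase of the skin, at 2.18, HMGN4, a nucleosome-binding protein, at 2.07, CRKL, an adaptor of growth factor signalling, at 2.01, and ZBTB21, a zinc finger factor, at 2.01. CRKL had 189.9, 189.1 and 197 in G1 and 805.0, 823.7 and 768.0 in M-phase. Just below them stood PPP1R15A (GADD34), which directs the phosphatase that ends the stress-induced block of translation, with 170.0, 138.3 and 182 in G1 and 593.6, 684.4 and 739.6 in M-phase, a change of 1.99. DONSON, a replication fork protein, changed by 1.95, DDX17, an RNA helicase, by 1.94, and EP300, a histone acetyltransferase, by 1.94. The promoter of PLK2, a polo-like kinase induced by serum, had 369.8, 253.9 and 334 in G1 and 1143.6, 1272.0 and 1226.1 in M-phase, a change of 1.90. AHR, the aryl hydrocarbon receptor, also reached 1.90.

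**Figure D2:**
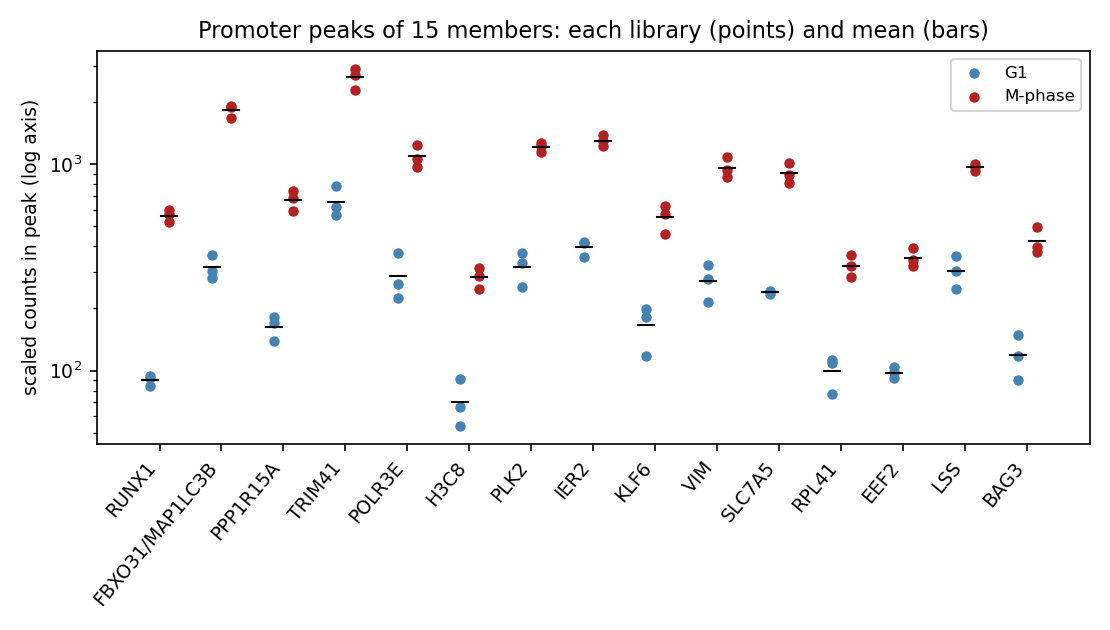
Scaled counts (log axis) of 15 member promoter peaks in each G1 (blue) and M-phase (red) library, with bars at the means of 3 libraries. In each of the 15 the lowest M-phase library lies above the highest G1 library, as the rule requires, and the G1 values of H3C8 run from 53.9 to 91.

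Per kilobase of peak, the FBXO31 and MAP1LC3B peak had 922.7 scaled counts in M-phase and the first RUNX1 peak 274.6. By total count, the highest member in M-phase was ING1, a reader of histone methylation, at 3550.1, in a peak 3776 bases wide, against 1394.0 in G1, a log2 change of 1.34. The next were SP3, a factor that binds GC boxes, at 2798.4, TRIM41, a ubiquitin ligase, at 2643.2, and SOX12, a factor of the SOX family, at 2638.8. With loess the log2 changes of SP3 and SOX12 were -0.0032 and -0.0018. At the limits of the rule, ACACA, RBM34 and LAMC1 stood just inside with log2 changes of 1.0002, 1.0006 and 1.0011, and TPRA1, the promoter shared by ATAD2 and NTAQ1, and ZFAND6 just outside with 0.9999, 0.9995 and 0.9994. SERPINA6, CLIP4 and MTPAP, with M-phase means of 40.6, 43.7 and 45, were just inside the limit on height, and IGF2BP2, POMT2 and MITF just outside with 31.9, 28.1 and 25.7.

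Members came from nearly every class of gene, and 847 of the 2307 genes fell in 25 lists drawn up by gene symbol, where peaks shared by neighbouring genes count in the list of each. A list's share of members is to be read against the 15.9% of all protein-coding promoter peaks, and 17 of the 25 lists lay above it. The same libraries chose the members, so that these shares are a description. All 2014 members were called higher by limma on the same values, and calls are therefore given for the peaks of a list that were not members, beside 4045 of 10397 (38.9%) higher and 606 (5.83%) lower over all non-member promoter peaks tested. The shares moved with the scaling. With equal totals 4.78% of protein-coding promoter peaks met the rule and 20 lists lay above that, and with loess 1.94% met it and 15 lists lay above. With loess the shares of splicing and mRNA processing (1.76%), the proteasome and ubiquitin system (1.45%), cytoskeleton and adhesion (1.18%), translation factors and tRNA synthetases (1.63%) and growth signalling (1.59%) fell below that background, and lipid and sterol metabolism and nuclear pore and transport had 0 members. Other lists, below the background on the authors' scale, rose above it with loess. They were DNA repair (4.9%), cytokine, NF-kB and interferon (4.11%), zinc finger factors (3.6%), tRNA and rRNA maturation (2.6%) and mitochondrial ribosomal proteins (2.6%).

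Replication-dependent histones, made in bulk when DNA is copied, had the highest share: 33 of 41 promoter peaks (80.5%), over 50 of 58 genes. The median log2 change was 1.27, and of the 8 peaks that were not members 6 were called higher and none lower. With equal totals 16 of the 41 met the rule (39%) and with loess 6 (14.6%). The largest was H3C8, a histone H3 gene, with 66.6, 53.9 and 91 in G1 and 248.0, 312.7 and 287.3 in M-phase, a log2 change of 1.89. The promoter shared by the linker histone gene H1-4 and H2BC5 had 271.4, 197.7 and 263 in G1 and 768.3, 834.0 and 925.8 in M-phase, a change of 1.76. H2AC8 changed by 1.66. Copies of these genes are nearly alike, and since the authors' mapping kept reads with up to 3 locations, reads may be shared between copies.

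Immediate-early genes, their relatives and the MYC network, which respond to growth factors within minutes, had 30 of 65 peaks among the members (46.2%), with a median of 0.91, and of the 35 others 19 were called higher and none lower. With equal totals 12 met the rule (18.5%) and with loess 2 (3.08%). Over all 65 peaks, members included, loess gave 30 higher and 6 lower, against 2854 and 2187 of 12411 promoter peaks tested. FOSL1, a partner of JUN in the AP-1 factor, had 275.4, 181.3 and 269 in G1 and 725.9, 829.8 and 877.7 in M-phase, a log2 change of 1.71. KLF6, a growth-induced zinc finger factor, had 180.9, 118.0 and 198 in G1 and 456.9, 574.8 and 630.8 in M-phase, a change of 1.69. IER2 changed by 1.69 and ID1, an inhibitor of differentiation factors, by 1.66. FOSB changed by 1.62, JUND by 1.54, JUNB by 1.46, SRF by 1.33 and MYC by 1.05, while the phosphatases DUSP5 and DUSP1, which switch off MAP kinases, changed by 1.52 and 1.45. G1 cells here lacked serum, and the part of serum in these values was not tested.

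Stress response and autophagy genes had 36 of 101 peaks among the members (35.6%), with a median of 0.78, and of the 65 others 32 were called higher and 5 lower. With equal totals 14 met the rule (13.9%) and with loess 3 (2.97%). Over all 101 peaks, members included, loess gave 38 higher and 20 lower, against 2854 and 2187 of 12411 promoter peaks tested. Besides PPP1R15A and MAP1LC3B these were GADD45B, a stress-induced regulator of kinases, with a log2 change of 1.80, DDIT3 (CHOP) at 1.63, GABARAP, a relative of LC3B, at 1.62, ATF4, the factor that switches on amino acid stress genes, at 1.61, XBP1, a factor of the unfolded protein response, at 1.34, and SQSTM1, an autophagy receptor, at 1.30. ATF4 had 392.7, 290.6 and 354 in G1 and 1030.7, 1015.3 and 1174.1 in M-phase. Some amino acid transporter genes that ATF4 is known to control were members also. SLC7A5, with 239.6, 234.4 and 244 in G1 and 812.0, 883.8 and 1013.9 in M-phase, changed by 1.88, SLC1A5 by 1.88 and SLC38A2 by 1.58. Targets of ATF4 were not counted as a set, and the part of ATF4 in these values was not tested. As a whole the list of solute carriers and ion transport was below the background, with 60 of 561 peaks (10.7%).

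Ribosomal protein genes of the cytosol and of mitochondria had different shares. Cytosolic ribosomal protein genes had 26 of 87 peaks among the members (29.9%), with a median of 0.78. Of their 61 others 38 were called higher and none lower. Mitochondrial ribosomal protein genes had 6 of 77 (7.79%) and a median of 0.44, against 0.452 over all protein-coding promoter peaks. Of their 71 others 31 were called higher and 3 lower. The difference of the shares of members was not tested, and with loess these shares were 5.75% and 2.6%. RPL3, whose peak holds the small nucleolar RNA gene SNORD43, changed by 1.73, RPL41 by 1.62, with 108.4, 77.3 and 112 in G1 and 283.8, 320.6 and 361.4 in M-phase, and RPS15 by 1.52. Over the 86 cytosolic ribosomal peaks tested, members included, equal totals gave 46 higher and 6 lower, and loess 38 and 9. Over all 12411 protein-coding promoter peaks tested these counts were 4170 and 1932, and 2854 and 2187. The elongation factor gene EEF2 had 91.5, 103.9 and 98 in G1 and 320.5, 343.6 and 394.1 in M-phase, a change of 1.77, and of the peaks of translation factors and tRNA synthetases 22 were members (17.9%).

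Genes that act on chromatin and on transcription also lay above the background on the authors' scale. With loess, 9 of 203 peaks of chromatin regulators met the rule (4.43%), against 1.94% of all protein-coding promoter peaks. For RNA polymerase II, Mediator and general factors it was 3 of 122 (2.46%), and for RNA polymerase I and III machinery 1 of 42 (2.38%). These polymerase lists were thus near the background with loess, and splicing fell below it. Chromatin regulators had 60 of 203 peaks (29.6%), and of the 143 others 83 were called higher and 3 lower. Over all 203 peaks, members included, loess gave 69 higher and 26 lower, against 2854 and 2187 of 12411 promoter peaks tested. The histone demethylase genes KDM6B and KDM6A both changed by 1.66. The list of RNA polymerase II, Mediator and general factors had 34 of 122 (27.9%), with HEXIM1, which holds the elongation kinase P-TEFb inactive, at 1.65 and POLR2A, the largest subunit of the polymerase, at 1.62. Splicing and mRNA processing genes had 56 of 227 (24.7%), led by DDX17 at 1.94. Next were the peak shared by HCFC1R1, THOC6 and TNFRSF12A, at 1.87, and that of SRSF2, a splicing factor, at 1.77. RNA polymerase I and III machinery had 10 of 42 (23.8%). POLR3E, a subunit of RNA polymerase III, had 263.5, 225.8 and 371 in G1 and 975.1, 1063.5 and 1246.3 in M-phase, a change of 1.90.

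The list named for the state of these cells did not stand out by its share of members. Mitosis and G2/M genes had 31 of 195 peaks among the members (15.9%), the share of all protein-coding promoter peaks. Their median was 0.63, against 0.452 over all protein-coding promoter peaks. Of the 164 others 89 were called higher and 8 lower, and the share higher was above the 38.9% of all non-member promoter peaks. Over all 195 peaks, members included, equal totals gave 80 higher and 21 lower, and loess 54 and 30. Over all 12411 protein-coding promoter peaks tested these counts were 4170 and 1932, and 2854 and 2187. The members were PLK2, NCAPH2, a condensin II subunit, at 1.86, KIF11, a spindle motor, at 1.46, PRC1, a protein of the midzone, at 1.23, AURKB, a mitotic kinase, at 1.19, and CCNB2, a cyclin, at 1.05, among others. Some genes caught by the symbols of this list act elsewhere, such as KIF5B, a motor of vesicle transport. DNA repair genes had 16 of 102 (15.7%), zinc finger factors 76 of 583 (13%) and the respiratory chain and mitochondrial import 17 of 139 (12.2%). With loess these shares were 4.9%, 3.6% and 1.44%, against 1.94% of all protein-coding promoter peaks.

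Of the remaining lists, lipid and sterol metabolism had 14 of 57 (24.6%), with the sterol enzyme LSS, with 304.2, 249.2 and 360 in G1 and 931.8, 971.6 and 1001.3 in M-phase, at 1.64. Nuclear pore and transport had 16 of 70 (22.9%), with NUP153 at 1.58. DNA replication and G1/S had 19 of 88 (21.6%), with the 3 histone chaperone genes CHAF1B, ASF1B and CHAF1A at 1.58, 1.44 and 1.40. The proteasome and ubiquitin system had 80 of 414 (19.3%), vesicle traffic and secretion 59 of 309 (19.1%), cytoskeleton and adhesion 48 of 254 (18.9%), with VIM at 1.79, and chaperones and heat shock 16 of 87 (18.4%), with HSPA5, the chaperone of the endoplasmic reticulum, at 1.78 and BAG3 at 1.76. The growth signalling list had 53 of 314 (16.9%), with GRB2, the adaptor between growth factor receptors and RAS, at 1.87. Cytokine, NF-kB and interferon genes had 23 of 146 (15.8%), with RELB at 1.67, and tRNA and rRNA maturation 22 of 154 (14.3%), a list whose symbols also catch genes of other roles such as WDR81.

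**Figure D3:**
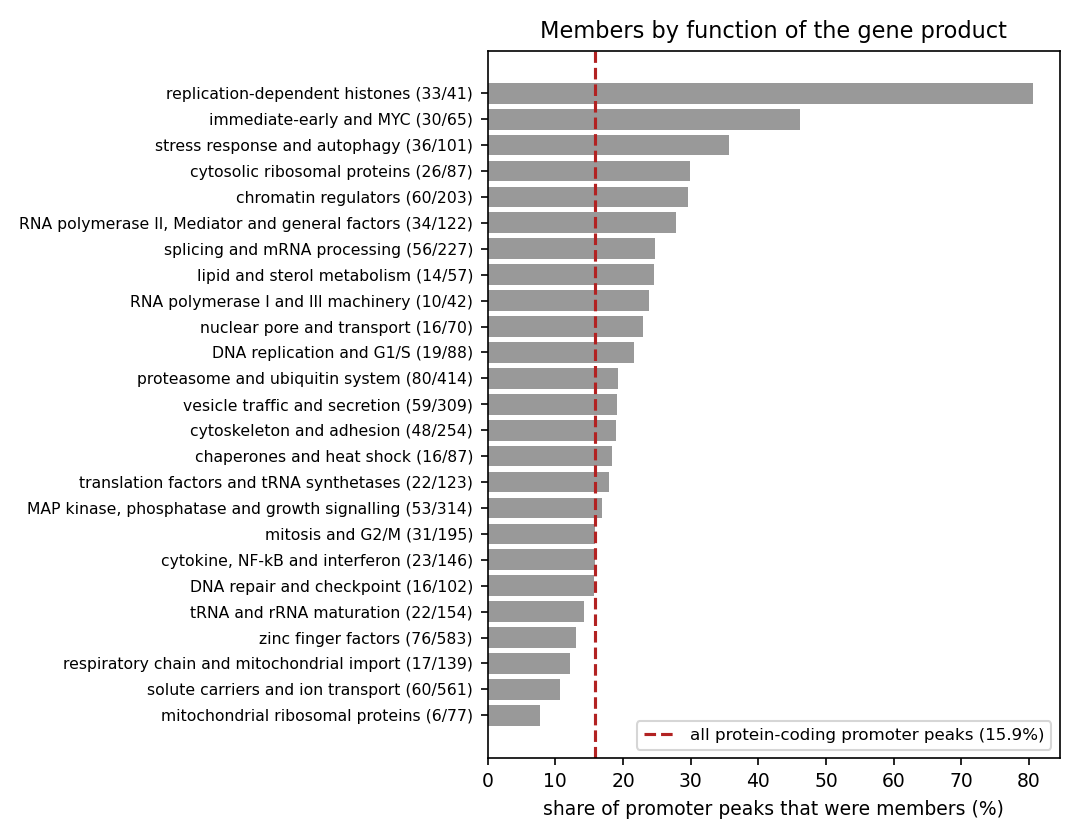
Share of the protein-coding promoter peaks of each of 25 gene lists that were members (bars, in %, with members and peaks in brackets) and the share over all such peaks (dashed line, 15.9%). Histones stand far to the right at 80.5%, mitosis and G2/M lies on the line, and mitochondrial ribosomal proteins are lowest at 7.79%.

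Some of the largest gains lay where the sequence holds the internal promoter of RNA polymerase III genes, the A box and the B box of tRNA genes. A strict consensus of both boxes, 20 to 80 bases apart on the same strand, was found in 6 of 12644 protein-coding promoter peaks, and all 6 were members: TRIM41, NDUFS7, ANG with RNASE4, LRP3, ZNF839 and AGBL5. A wider consensus, chosen after the strict matches had been seen, was found in 40 promoter peaks, of which 25 were members (62.5%, against 15.9% overall), and in 8 of the 30 members with the largest change. These 8 were ALOXE3, HMGN4, TRIM41, NDUFS7, RNASE11, DPP9, PLXDC1 and POLR3E. Whole peaks were searched, and member peaks were wider than other promoter peaks, with no allowance made for this. Examples are shown since they carry the pattern, read from hg19 5′ to 3′ on the strand of the element, with the A box and the B box in capitals.
TRIM41, chr5:180648990-180649044, minus strand: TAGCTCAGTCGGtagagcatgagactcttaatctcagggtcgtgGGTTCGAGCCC
NDUFS7, chr19:1383372-1383426, minus strand: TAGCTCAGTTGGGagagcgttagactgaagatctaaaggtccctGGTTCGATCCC
ALOXE3, chr17:8022480-8022534, plus strand: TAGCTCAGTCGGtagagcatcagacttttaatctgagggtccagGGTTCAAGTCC
HMGN4, chr6:26538289-26538343, plus strand: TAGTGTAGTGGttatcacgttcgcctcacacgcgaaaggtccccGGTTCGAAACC
PLXDC1, chr17:37310755-37310808, minus strand: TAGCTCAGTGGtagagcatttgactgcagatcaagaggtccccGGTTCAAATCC
RNASE11, chr14:21078298-21078361, plus strand: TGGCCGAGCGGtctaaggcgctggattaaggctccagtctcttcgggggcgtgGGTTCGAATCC
POLR3E, chr16:22308468-22308531, plus strand: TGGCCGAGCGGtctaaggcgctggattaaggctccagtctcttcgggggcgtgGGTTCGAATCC
ZNF839, chr14:102783436-102783491, plus strand: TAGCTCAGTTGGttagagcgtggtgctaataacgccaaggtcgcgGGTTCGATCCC

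None of the stretches shown overlaps an annotated exon. The RNASE11 and POLR3E elements have the same letters, so that reads within them could have come from either copy, whereas the peaks, 1274 and 1720 bases wide, are far longer than the 64 bases of the element. TRIM41 had 622.4, 569.5 and 781 in G1 and 2296.6, 2721.9 and 2911.2 in M-phase, a log2 change of 1.99. NDUFS7, a subunit of respiratory complex I, had 147.1, 129.7 and 140 in G1 and 506.3, 588.0 and 628.4 in M-phase, also 1.99. ALOXE3 had 57.7, 95.3 and 81 in G1 and 364.2, 425.6 and 354.2 in M-phase, in a peak of 790 bases. Several of these genes, such as RNASE11 and ALOXE3, are known from a few tissues only. Whether accessibility there belonged to the protein-coding gene or to the element was not tested.

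The same elements could be read in peaks that the rule did not use. Outside protein-coding promoters 19 peaks held the strict pair, and 17 of the 19 were higher in M-phase and none lower by limma, against the 14.3% and 13.1% of all peaks. Their median log2 change was 1.66, and 16 of the 19 (84.2%) reached the limits of the rule on values, against 0.89% of all other peaks. The largest, at chr17:8089372-8091869, had 313.2, 260.9 and 355 in G1 and 2311.9, 2457.0 and 2507.0 in M-phase, a log2 change of 2.94 with an adjusted p of 6.5e-30 by limma. The smallest, at chr13:95201115-95202644, had 285.3, 279.7 and 427 in G1 and 361.7, 407.1 and 412.4 in M-phase, a change of 0.25 with an adjusted p of 0.26 by limma. The wider consensus was found in 112 such peaks, of which 107 were tested, 82 were higher and 1 was lower. Of the 19, 7 lie on chromosome 6 and 3 on chromosome 17, some within 50 kb of each other, so that they are not independent regions.

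**Figure D4:**
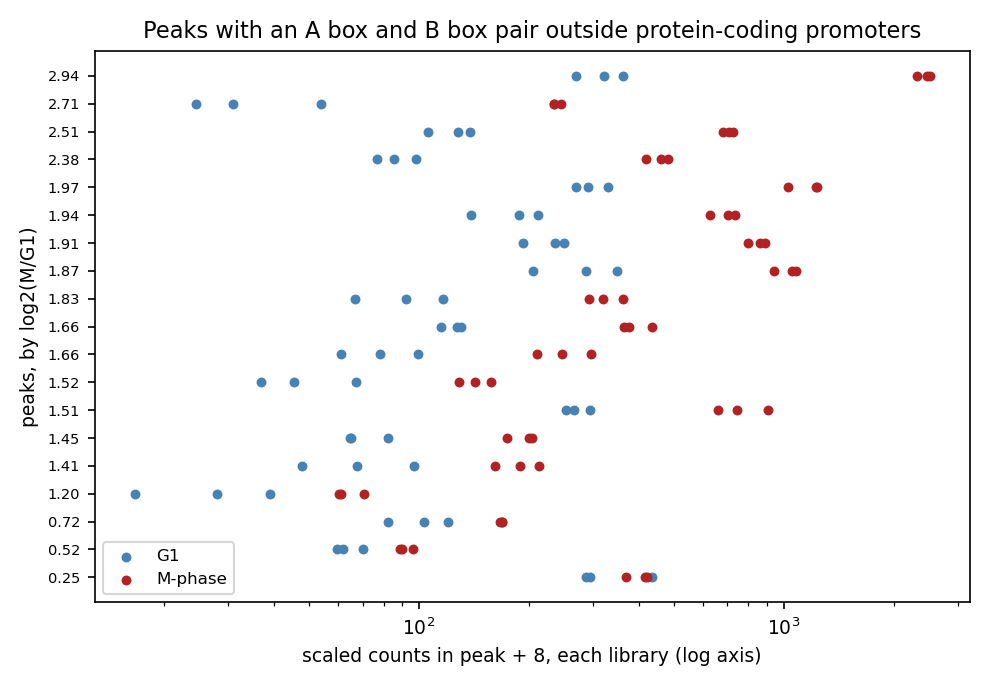
The 19 peaks outside protein-coding promoters that hold the strict A box and B box pair, 1 per row and ordered by log2 change (y axis labels), with the scaled counts + 8 of each G1 (blue) and M-phase (red) library on a log axis. The phases are apart in all rows but the lowest, where the G1 value of 427 exceeds the M-phase values.

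Among shorter motifs, searched on both strands in the 300 bases from 250 before to 50 after the start site and each on its own, 10 of 13 were more frequent in members than in other promoters, by differences that were not tested. The motif TGACGT, the core bound by CREB and ATF factors, was found in 15.4% of members and 9.84% of the 9147 other promoter peaks with a mean of 40 or more in M-phase. It was in 10.2% of all protein-coding promoter peaks, and 24.1% of the peaks with it were members. The GC box GGGCGG, bound by SP and KLF factors, was in 81.4% and 76.2%, with 73.8% over all. CCAAT, bound by NFY, was in 37.7% and 33.1%, with 33.2% over all. The NRF1 core CATGCGC was in 9.98% and 7.02%, the E box CACGTG in 12.2% and 9.31%, TATAAA in 5.71% and 3.27%, and the E2F motif TTTNNCGC in 11.9% and 9.93%. Over all promoter peaks these 4 were in 7.02%, 9.41%, 4.55% and 9.79%. The ZNF143 core ACTACAA went the other way, with 1.39% of members, 3.57% of the others and 3.07% over all. ETS (CCGGAAG, 19.7% and 18.4%), YY1 (AAGATGG, 8.09% and 7.23%), CHR (TTTGAA, 7.85% and 7.71%), AP-1 (TGANTCA, 4.42% and 4.48%) and the CArG box (0.844% and 0.853%) differed least. In the 300 bases around the peak centre, 10 of 13 were again more frequent in members, but at lower levels: TGACGT was in 9.33% of members and 6.56% of the others, CATGCGC in 6.06% and 4.56%, CACGTG in 7.85% and 6.26%, and TATAAA in 2.78% and 2.24%, against 2.97% of all promoter peaks.

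The 150 bases before the start site are shown for members that hold TGACGT there (CRKL, PLK2, EEF2 and IER2) and for members with more than 1 CCAAT (H3C8 and CKS2), from the first listed base to the base before the start, 5′ to 3′ on the strand of the gene, in hg19. Capitals mark the CREB/ATF core, the CCAAT box and TATAAA, read on either strand.
CRKL, chr22:21271545-21271694, plus strand: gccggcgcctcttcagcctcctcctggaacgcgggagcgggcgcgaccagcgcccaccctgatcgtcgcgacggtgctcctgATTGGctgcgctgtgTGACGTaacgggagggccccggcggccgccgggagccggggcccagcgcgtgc
PLK2, chr5:57755967-57756116, minus strand: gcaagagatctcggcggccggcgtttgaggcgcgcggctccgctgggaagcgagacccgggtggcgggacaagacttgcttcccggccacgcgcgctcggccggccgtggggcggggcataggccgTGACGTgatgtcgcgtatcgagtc
EEF2, chr19:3985462-3985611, minus strand: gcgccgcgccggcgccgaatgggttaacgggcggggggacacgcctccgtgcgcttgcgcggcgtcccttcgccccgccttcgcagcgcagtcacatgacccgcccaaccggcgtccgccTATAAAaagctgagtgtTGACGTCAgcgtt
IER2, chr19:13262639-13262788, plus strand: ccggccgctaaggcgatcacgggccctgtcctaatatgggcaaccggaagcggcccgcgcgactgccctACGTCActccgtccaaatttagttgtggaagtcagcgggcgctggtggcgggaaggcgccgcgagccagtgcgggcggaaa
H3C8, chr6:26271642-26271791, minus strand: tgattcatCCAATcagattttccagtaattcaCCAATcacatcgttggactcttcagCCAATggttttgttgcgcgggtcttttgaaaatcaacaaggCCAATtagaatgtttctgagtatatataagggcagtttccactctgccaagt
CKS2, chr9:91925960-91926109, plus strand: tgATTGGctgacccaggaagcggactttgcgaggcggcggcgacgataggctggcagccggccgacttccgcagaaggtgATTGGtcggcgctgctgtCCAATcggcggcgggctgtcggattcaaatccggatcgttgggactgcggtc

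H3C8, the histone promoter, held 4 CCAAT boxes in this window and CKS2, a partner of cyclin-dependent kinases, held 3. CKS2 had 234.6, 232.0 and 307 in G1 and 769.1, 890.4 and 966.7 in M-phase, a change of 1.73.

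Width went with membership more than base composition did. Member peaks had a median width of 1554 bases, against 1271 for other promoter peaks with a mean of 40 or more in M-phase. When the promoter peaks with that mean were put in 4 equal groups by width, 8.35%, 12.6%, 20.3% and 30.9% were members from the narrowest to the widest, and the median log2 change was 0.3, 0.46, 0.58 and 0.78. Wider peaks also held more counts. Peaks were called on the reads of each phase and then merged, so that width is not independent of the values that chose the members. In 4 such groups by the ratio of observed to expected CpG, the share rose from 11.7% to 17%, 20% and 23.4%, and by GC content it was 14.5%, 18.4%, 21.7% and 17.4%. The median GC content was 64.4% in members and 63.6% in the others.

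The starts of 2 or more protein-coding genes lay in 17.3% of members and in 12.8% of other promoter peaks with a mean of 40 or more in M-phase, and 2 genes that run apart from each other in 270 (13.4%) and 930 (10.2%). These differences were not tested, and member peaks were wider, as given above. Such pairs included SAR1B with SEC24A, both of the vesicle coat COPII, whose peak had 201.8, 185.2 and 184 in G1 and 617.1, 728.1 and 637.1 in M-phase, a log2 change of 1.75. A small RNA gene was annotated in 46 members (2.28%) and in 74 of the other peaks with a mean of 40 or more in M-phase (0.809%). In 36 members it was a miRNA gene, such as MIR4638 in the TRIM41 peak, MIR1281 in that of EP300, MIR3678 in that of GRB2 and MIR636 in that of SRSF2.

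Members were spread unevenly over chromosomes. They made up 34% of the protein-coding promoter peaks of chromosome 21, 28.3% of 17, 28.2% of 22, 25.9% of 18 and 25.5% of 20, but 7.64% of chromosome 2, 8.45% of 1, 8.79% of X and 8.94% of 4. Over the 22 autosomes and X the share fell with the length of the chromosome (Pearson r of -0.85, Spearman rho of -0.88, n = 23 chromosomes). It rose with the median log2 change of peaks with a mean of at least 10 more than 2 kb from any annotated start on the same chromosome (r of 0.79, rho of 0.87), which ran from -0.46 on X to 0.13 on chromosome 21, and with the GC content of the promoter peaks (r of 0.63). All 23 points come from the same 6 libraries, and the correlations are descriptions.

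Each library showed the shift. Relative to all protein-coding promoter peaks, the median of those on chromosome 21 lay at 0.15, 0.19 and 0.12 on the log2 scale in the G1 libraries and at 0.55, 0.51 and 0.54 in M-phase. On X it lay at -0.4, -0.44 and -0.29 in G1 and at -0.74, -0.74 and -0.73 in M-phase, and on chromosome 5 at 0.48, 0.46 and 0.49 in G1 and at 0.32, 0.27 and 0.3 in M-phase. The phases did not overlap on any of these 3 chromosomes, which were picked after the values had been seen. Members also lay near each other: the next promoter peak within 50 kb was a member in 288 of 826 cases (34.9%) after a member and in 633 of 3816 (16.6%) after another promoter peak.

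**Figure D5:**
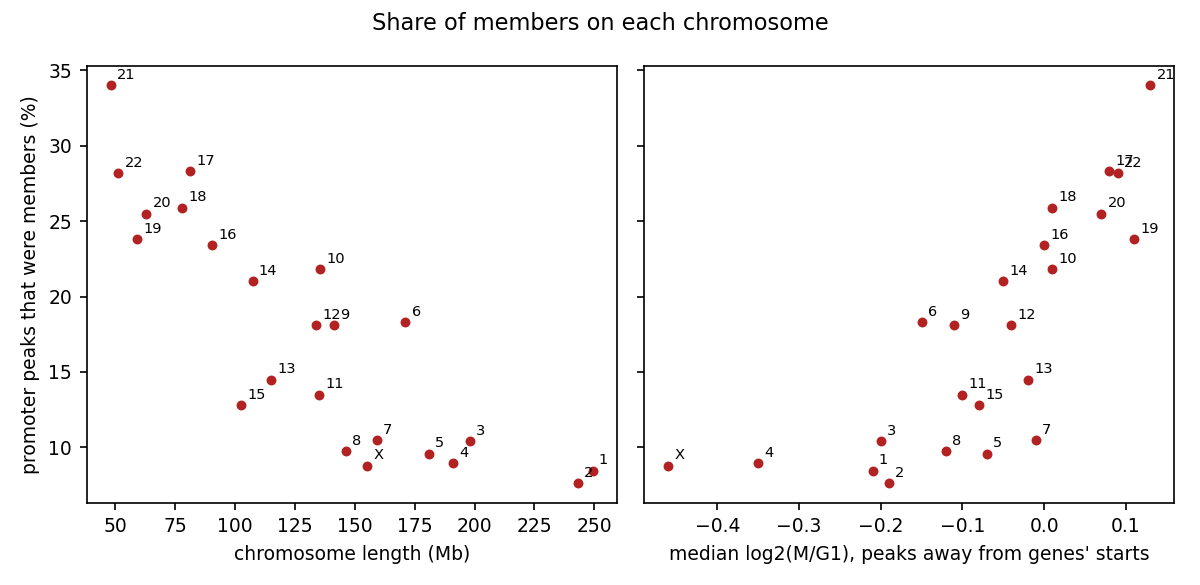
Share of protein-coding promoter peaks that were members (y axis, %) on each of 23 chromosomes against the chromosome's length in Mb (left) and against the median log2(M/G1) of peaks more than 2 kb from annotated starts (right). Chromosome 21 stands highest at 34% and chromosome 2 lowest at 7.64%, and the share tends to fall with length, with exceptions such as chromosome 6 at 18.3%.

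Several genes had more than 1 member peak, 72 in all and 6 with at least 3. CIRBP, a cold-inducible RNA-binding protein, had 4, with log2 changes of 1.89, 1.55, 1.27 and 1.15. PLEC, a cytoskeletal linker, also had 4, of which 1 had a change of -0.06 with loess, and SIN3A, a scaffold of histone deacetylases, had 3, with 1.42, 1.35 and 1.16. SEPTIN9, a filament protein of cell division, had 3, with 1.66, 1.17 and 1.05. In the pseudoautosomal region, X and Y are the same sequence, and 4 members on Y repeat genes of X (SLC25A6, ASMTL, AKAP17A and PPP2R3B), so that their reads cannot be assigned to either, and 2010 members remain without them.

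The other peaks of the member genes, from 5 kb before the gene to its end, were not chosen by the rule. Of 3550 such peaks tested, 838 were higher in M-phase by limma (23.6%) and 231 lower (6.51%), with a median log2 change of 0.20. Beside this, 19755 peaks of other protein-coding genes, each gene's strongest promoter peak left out, were 8.45% higher and 15.6% lower, with a median of -0.05. A peak in genes of both kinds was counted with the member genes. Peaks within 2 kb of a member were higher in 65.6% of 218 and lower in 0.459%, against 21.9% and 6.72% of 804 peaks as near to a promoter of another gene. Other promoters of the member genes were higher in 45.8% of 354 and lower in 2.82%, against 20.1% and 11.1% of 1381 for other genes. Over all non-member promoter peaks tested, 38.9% were higher and 5.83% lower. Peaks farther off were higher in 17.9% and lower in 7.39% of 2978, against 6.92% and 16.3% of 17570 for other genes. The other peaks of member genes also had a higher median level, at 26.8 against 20.7, and the part of height was not tested. With equal totals the 838 and 231 became 482 and 530, which were 13.6% and 14.9% of the other peaks of member genes. Over all peaks tested with equal totals 8.67% were higher and 24.7% lower.

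Of 1201 member genes with another peak tested, 535 had one that was higher, 161 one that was lower and 82 both. A gene can have several tested peaks, and the same counts were not made for other genes. These counts therefore show nothing particular to member genes. Near TRIM41 a peak at chr5:180644174-180645348 had 141.2, 150.8 and 166 in G1 and 1159.2, 1201.5 and 1423.3 in M-phase, a fitted log2 change of 2.98 (limma adjusted p = 1e-27). Near FOSL1 a peak at chr11:65670626-65671059 had 10.9, 30.5 and 35 in G1 and 140.9, 142.6 and 126.6 in M-phase, a fitted change of 2.20 (limma adjusted p = 6.9e-12).

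The opposite was seen within NFE2L2, the gene of the oxidative stress factor NRF2. Its member promoter had a mean of 923.4 in G1 and 1961.5 in M-phase, a gain that turned to -0.1 on the log2 scale with loess, while a peak at chr2:178162883-178163573 had 129.2, 120.3 and 176 in G1 and 37.1, 35.4 and 25 in M-phase, a fitted log2 change of -1.88 (limma adjusted p = 1.51e-10). In FAM174B a peak at chr15:93160819-93161118 had 38.8, 53.1 and 66 in G1 and 4.5, 15.2 and 5.8 in M-phase, a fitted change of -1.91 (limma adjusted p = 8.56e-08). In FNDC3B, whose promoter had 307.2, 238.3 and 379 in G1 and 623.3, 641.1 and 737.2 in M-phase, a peak inside the gene at chr3:172035709-172036307 went from 83.5, 84.4 and 116 to 19.8, 21.0 and 31.8, a fitted change of -1.68 (limma adjusted p = 4.15e-08). RGS9 had such a peak as well, with a fitted change of -1.69. For ENSG00000282278, a gene listed by its identifier alone, the member promoter at chr4:54243575-54244478 is shared with FIP1L1. The lower peak counted with this gene, at chr4:55147333-55147976, had a fitted change of -1.81. It lies far from that promoter, and whether it belongs to another gene was not tested. On the authors' scale the promoter was thus higher and the other peak lower in M-phase, with no overlap of the phases in NFE2L2, FAM174B or FNDC3B.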

How the data were processed

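ATAC-seq of T98G cells in G1 (3 libraries) and M-phase (3 columns, for replicates with 2 labelled runs each, not told apart) was analysed. The authors mapped reads to hg19 with Bowtie, allowing up to 3 locations and keeping 1, removed mitochondrial reads, pooled the replicates of a phase to call broad peaks (MACS2), merged the peaks of both phases, counted reads in them, scaled the counts to the smallest library and deposited them rounded to 0.1. The deposited values are therefore a signal, not whole counts, and no count model was used. Deposited columns of the authors' log2 ratio and its SD were not used, and 0 columns of other samples were present. Gene and transcript starts came from GENCODE v44 lifted to GRCh37. All 24 chromosome names matched the reference and all peak ends lay within its lengths.

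Peaks with at least 10 scaled counts (adjusted for library total) in 3 libraries and 15 in all were tested with limma 3.58.1 (R 4.3.3) on log2(value + 8) with a trend and Benjamini-Hochberg adjustment over all 73121 peaks. The threshold was 0.05. The test was checked on simulated data. Other steps used Python 3.11.15, pandas 2.3.3, numpy 2.4.6, pysam 0.24.0, scipy 1.17.1 and matplotlib 3.10.9. GC content was left out for 9 promoter peaks whose sequence is masked in the reference. The members, gene lists and motifs were chosen with earlier results of these data known. Named genes were the 30 largest changes, the 10 highest M-phase means, up to 4 per list, 3 on each side of each limit, 5 with an opposite peak, and 10 with a small RNA gene or an A and B box pair. Other genes were named after their values were seen. The values give no read depth for single peaks, so that precision rests on the spread over 3 libraries. Some items are not reported here.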

Additional observations from a re-analysis of the deposited data

How the results depend on the processing

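Of the 2014 members, scaling moved the number most: 605 peaks met the rule with equal totals (all 605 members), 1320 with TMM (all members), 245 with loess (220 of them members), and 348 when the change was counted above the median of protein-coding promoter peaks, an alternative chosen after seeing the data. Leaving out single libraries gave 1665 to 2625. Equal totals gave 6341 peaks higher and 18090 lower over all peaks, against 10439 and 9548, and 482 and 530 over the other peaks of member genes, against 838 and 231. A mean of at least 20 in place of the filter gave 6278 lower over all peaks and 151 lower among the other peaks. With loess 1 of the 19 element peaks was lower. In the replicate left out, equal totals gave a median log2 change of 1.2 for replicate 2, against 1.44. With loess the log2 change reversed at the promoters of SP3 (-0.0032), SOX12 (-0.0018), PLEC (-0.06) and NFE2L2 (-0.1). Of the values of named promoters under the alternatives, 1100 moved by less than the spread between replicates, 226 moved by more and 4 reversed. These counts pool unlike alternatives. Of the 133 named promoters, 100 moved by more than that spread with equal totals, 113 with loess and 11 with TMM. With any single library left out 0 did. The causes were not tested. Replicate numbers did not pair the libraries (correlations of same-numbered deviations of 0.01, -0.0025 and 0.031), and a replicate block gave 10881 higher and 10063 lower over all peaks and 865 and 252 over the other peaks. No depth per peak limits a member, all with an M-phase mean of 40 or more, but a G1 mean as low as 12.8 makes the fold of the weakest members uncertain. The count models planned as alternatives were not run because the values are scaled, rounded signals.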
